A study of Mus musculus with 4 samples.

Results

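The genes described here carry TGF beta, BMP, activin and myostatin signals: 43 genes chosen by symbol from a list of ligands (12), receptors (10), SMAD proteins (7), inhibitors (10) and Id target genes (4), out of 55487 gene identifiers in the deposited tables. All 43 were found, each under 1 identifier. RNA was taken from muscle stem (satellite) cells of mice carrying the Tg:Pax7-nGFP transgene, a nuclear GFP reporter driven from Pax7. Minced skeletal muscle had been exposed, while it was being digested, to a vivo-morpholino, an antisense oligomer that enters cells without transfection. The Numb exon 6 morpholino was designed to keep that exon out of the mature transcript, and the other was a control morpholino; satellite cells were isolated afterwards. Muscle of 2 mice was used, and each animal contributed a Numb exon 6 library and a control library, which makes 2 libraries in either group. The labels used here give no age, sex or injury.

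As background, ligands of this family bind a complex of type II and type I receptor kinases at the cell surface, and the type I kinase phosphorylates receptor-activated SMAD proteins. TGF beta, activin and myostatin signal mainly through SMAD2 and SMAD3, and BMPs through SMAD1 and SMAD5. Both branches share SMAD4, and SMAD6 and SMAD7 act as feedback inhibitors. In muscle, myostatin restrains growth, TGF beta holds back myoblast differentiation and fusion, and BMP signalling raises the Id proteins, which bind the partners of myogenic bHLH factors such as MyoD and so favour proliferating over differentiating cells. The study asks how the splicing of Numb, an endocytic adaptor known as a Notch inhibitor, bears on satellite cell activation. The 43 genes show which other major niche signals were present as RNA in the same libraries, and at what level under each morpholino.

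In every library the satellite cell markers were high, with 10 of 10 at 1 TPM or more on average and summed levels of 12440 and 12543 TPM in the Numb exon 6 libraries of mouse 1 and mouse 2, against 10694 and 11524 TPM in their control libraries, most of it from Sdc4 and Myod1. Values of a group are given in that order throughout, mouse 1 and then mouse 2. Of these 10 markers 6 were higher in both mice (28.1% of all genes tested) and 1, Des, lower (27.3%). Myf5 stood at 847 and 588 TPM against 479 and 356 TPM (log2 fold change 0.72 ± 0.24, SE). For Myf5 edgeR gave an adjusted p of 0.999, or 0.481 with the mouse as a block. DESeq2 gave 0.404, or 3.13e-06 with the block. The 10 markers of fibro-adipogenic progenitors summed to 1658 and 1540 TPM with the Numb exon 6 morpholino and 1550 and 1426 TPM with the control. The 10 endothelial markers summed to 198 and 126 TPM against 131 and 128 TPM, the 8 glial markers to 115 and 139 TPM against 63.4 and 72.3 TPM, and the 12 leukocyte markers to 43.6 and 134 TPM against 33.2 and 38 TPM. Pmp22 made up most of the glial sum, and the other 7 glial markers came to 35.9 and 20 TPM against 18.3 and 18.9 TPM, close to level in mouse 2. Smooth muscle and pericyte markers (8) summed to 206 and 146 TPM against 178 and 138 TPM, tenocyte markers (7) to 69 and 61.2 TPM against 54.2 and 53.9 TPM, and myofibre markers (8) to 166 and 174 TPM against 149 and 156 TPM. Erythroid markers (6) summed to 928 and 1733 TPM against 538 and 1532 TPM. Of these, 5 were higher in both mice (28.1% of all genes tested) and 0 lower (27.3%). Of the leukocyte markers 8 of 12 were higher in both animals (28.1% of all genes tested) and 2, Csf1r and C1qa, lower (27.3%). The list's median log2 fold change was 1.39. S100a8 and S100a9, at 46.5 and 36.0 TPM, made up most of the leukocyte sum in the Numb exon 6 library of mouse 2. The leukocyte difference was not limited to these 2 genes or to mouse 2. Lyz2 stood at 12.3 and 21.2 TPM against 6.09 and 6.14 TPM (log2 fold change 1.39 ± 0.30, SE). For Lyz2 edgeR gave an adjusted p of 0.999, and DESeq2 one of 0.00457, or 0.000152 with the mouse as a block. Cd68, the most abundant leukocyte marker, had a log2 fold change of 0.02. None of the markers was at 0 in any library, and the part of these cells in the results was not tested. Fewer cells of a type and less RNA per cell cannot be told apart in such bulk samples. Numb itself stood at 60.3 and 58.7 CPM in Numb exon 6 libraries and 44.6 and 53.8 CPM in the controls (log2 fold change 0.27 ± 0.14, SE, n = 2 per group, edgeR adjusted p = 0.999). Values per gene cannot show how much of the Numb transcript held exon 6. Estimated counts summed to between 230431665 and 355411827 per library. They are taken here as derived from coverage and do not count fragments.

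Most of the family was detected in these libraries. Of the 43 genes, 6 had a mean of at least 100 TPM (the deposited unit, scaled to transcript length and library), 22 lay between 10 and 100 TPM, 9 between 1 and 10 TPM, and 6 were under 1 TPM. For scale, the median over the 15605 tested genes with a mean of at least 1 TPM was 9.31 TPM. Id3 had the highest mean level, 675 TPM, followed by Fstl1 (255 TPM), Ltbp4 (246 TPM), Id2 (157 TPM), Ltbp1 (155 TPM) and Bmp4 (101 TPM). At the low end were Smad6, Bmp5, Bmp7, Nog, Mstn and Grem1, with means from 0.0126 TPM (Grem1) to 0.609 TPM (Smad6). Thus myostatin itself, a product mainly of muscle fibres, was listed at 0.223 and 0.0118 TPM in the Numb exon 6 libraries and at 0.259 and 0.0415 TPM in the controls, while its close relative Gdf11 had a mean of 11.5 TPM.

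**Figure D1:**
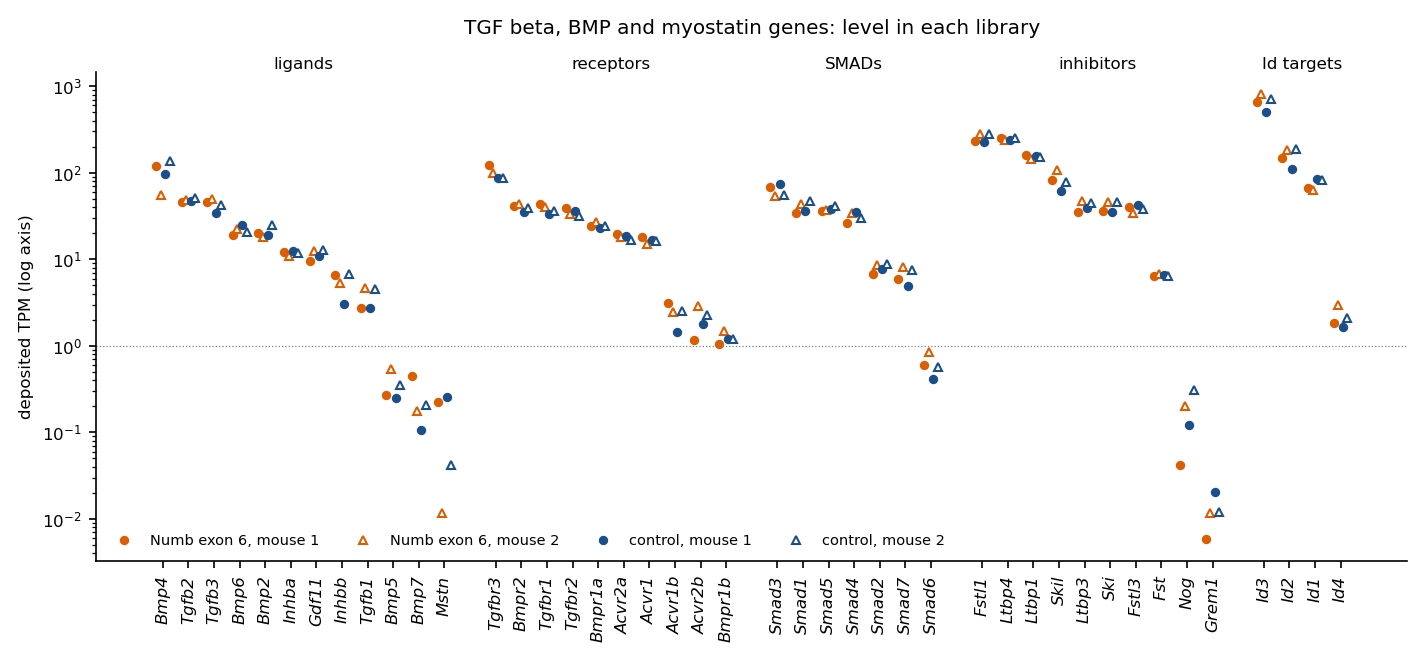
Deposited TPM (log axis) of each of the 43 genes in each library, grouped by role and ordered by mean level; orange marks Numb exon 6 and blue control libraries, circles mouse 1 and open triangles mouse 2, and the dotted line lies at 1 TPM. Id3, at a mean of 675 TPM, tops the plot, 6 genes lie under 1 TPM on average, and the Numb exon 6 and control points of most genes lie close together.

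None of the 43 genes differed between the morpholinos past the threshold. Grem1 did not pass the filter on low counts. The other 42 were tested with edgeR's quasi-likelihood test over all 27551 genes that passed it, and each had an adjusted p of 0.999; 0 of them were called, and 0% of all genes. At an unadjusted p under 0.05 stood 2 of the 42 genes, Id1 and Skil, against 4.16% of all genes. With the mouse as a block, which compares the libraries of the same animal, 0 were called (0% of all genes, smallest adjusted p among the 42 of 0.796), and 6 had an unadjusted p under 0.05, against 6.09% of all genes: Id1 and Smad5, with lower values in the Numb exon 6 libraries, and Skil, Tgfbr3, Tgfb3 and Id3, with higher ones. DESeq2 called 0 of the 42 without the block (0.241% of all genes) and 1, Skil, with it (0.699% of all genes). Over all genes the share at an unadjusted p under 0.05 was 5.34% with DESeq2, 7.15% with DESeq2 and the block, 4.14% with limma-voom and 4.7% with limma on log2(TPM + 1).

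The fold changes of the family centred near 0. The median log2 fold change of the 42 tested genes, Numb exon 6 minus control, was -0.05 on counts and 0.02 on log2(TPM + 1), against 0.00 over all genes tested on counts. Within mouse 1 the 37 genes with a mean of at least 1 TPM had a median log2 ratio of -0.06 and a median size of the ratio of 0.20, against 0.22 for all 15605 tested genes at that level. Within mouse 2 the 37 had a median ratio of -0.02 and a median size of 0.14, against 0.18. Of the 37, 11 were higher in both mice (29.3% of the 15605), 15 lower in both (29.7%) and 11 of opposite sign (41%). Both Numb exon 6 libraries lay above both controls for 5 of the 37 genes (17% of the 15605) and below them for 5 (17.7%). In TPM these were 5, against 21.8%, and 2, against 13.2%. The count lower in both mice was above its share over all genes on CPM. In TPM it was 9 of the 37. Shares of all genes by direction in both mice were computed on CPM only, so counts by direction in TPM stand without one. The other counts were near their share or under it. Over all 42 tested genes 14 were higher in both mice (28.1% of all 27551), 17 lower (27.3%) and 11 of opposite sign (44.6%), and 7 lay above both controls (17.4%) and 5 below (17.1%).

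**Figure D2:**
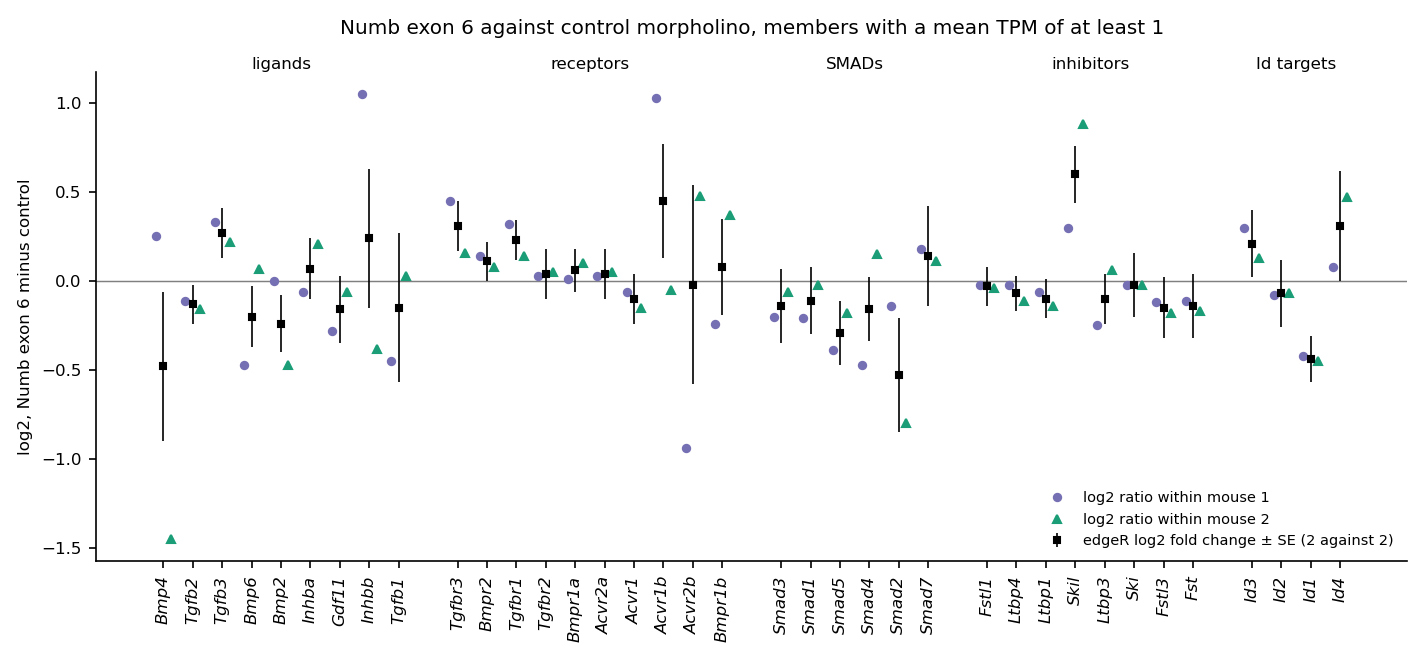
Log2 difference, Numb exon 6 minus control, for the 37 genes with a mean of at least 1 TPM: black squares with bars give the edgeR fold change ± SE (2 libraries against 2), circles the ratio within mouse 1 and triangles that within mouse 2. Skil at 0.60 is the highest fold change and Smad2 at -0.53 the lowest, and the ratios of the mice lie far apart for Bmp4, Inhbb, Acvr1b and Acvr2b.

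Among the ligands, Tgfb3 differed in the same direction in both mice. It encodes a TGF beta isoform (GRCm38 chromosome 12, 86056745 to 86079041) and stood at 78.6 and 85.6 CPM (estimated counts divided by TMM-scaled library size) in the Numb exon 6 libraries against 62.3 and 73.8 CPM in the controls. The groups did not overlap. The log2 fold change was 0.27 ± 0.14 (SE, with n = 2 in each group), and with the mouse as a block 0.28 ± 0.09 (edgeR adjusted p = 0.796). Leaving out the control library of mouse 1 gave 0.15. Tgfb3 shares exon bases with the opposite-strand models Gm37804 and Gm48008, and the library method does not mark strand. Tgfb2, the isoform with the highest TPM, had 96.5 and 98.3 CPM under the Numb exon 6 morpholino and 104 and 110 CPM with the control, lower in both mice, with a log2 fold change of -0.13 ± 0.11 (SE). Tgfb1, at a mean of 3.66 TPM, followed the mice instead of the morpholinos, at 2.76 and 4.64 TPM in the Numb exon 6 libraries and 2.73 and 4.52 TPM in the controls. In sum the 3 TGF beta isoforms came to 94.8 and 103 TPM with the Numb exon 6 morpholino, against 84.1 and 97.3 TPM with the control.

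Bmp4, the most abundant ligand of the family here (chromosome 14, 46383520 to 46390669), behaved differently in the mice. It stood at 120 and 50 CPM in Numb exon 6 libraries and at 100 and 136 CPM in the controls. The Numb exon 6 library of mouse 2 was thus the lowest, and in mouse 1 the Numb exon 6 library was the higher of its pair. The log2 ratio was 0.25 in mouse 1 and -1.45 in mouse 2, and the fitted log2 fold change of -0.48 ± 0.42 (SE, with n = 2 in each group) became 0.02 once mouse 2's Numb exon 6 library was left out. Bmp4 has exon bases in common with the opposite-strand model Gm15217. The 5 BMP ligands together came to 159 and 96.7 TPM with the Numb exon 6 morpholino against 140 and 182 TPM with the control, with Bmp4 the main part in each library.

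The other ligands had lower levels and no shared direction. Bmp2, a BMP ligand of bone and heart formation, was at 36.9 and 33.1 CPM in Numb exon 6 libraries and 36.9 and 45.8 CPM in the controls, so that the control library of mouse 2 stood highest. Bmp6, known as a regulator of iron balance in the liver, had 33.6 and 40.1 CPM against 46.6 and 38.2 CPM, with the control library of mouse 1 highest. Inhba and Inhbb encode the activin beta subunits. Inhba was even across the libraries, at 12.2 and 10.9 TPM with the Numb exon 6 morpholino and 12.4 and 11.9 TPM with the control. Inhbb, in contrast, had 14.4 and 11.6 CPM against 6.98 and 15.1 CPM, the control library of mouse 1 being low. Gdf11 had 19.9 and 25.9 CPM under the Numb exon 6 morpholino and 24.1 and 27.0 CPM with the control. The rare Bmp5 and Bmp7 had 0.531 and 1.05 CPM against 0.519 and 0.700 CPM, and 0.781 and 0.333 CPM against 0.186 and 0.317 CPM. Of the 12 ligands, 3 were higher in both mice in CPM (28.1% of all genes tested) and 3 lower (27.3%). In TPM they were 3 and 4, where no share over all genes was computed.

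Among the receptors, 6 of 10 were higher in both mice in CPM (28.1% of all genes tested) and 1 lower (27.3%). In TPM 6 were higher and 0 lower, where no share over all genes was computed. Their median log2 fold change was 0.07. Of the 6, Tgfbr2, Bmpr1a, Acvr2a and Bmpr2 had log2 ratios of at most 0.14 in either mouse. Tgfbr3 (betaglycan), a coreceptor that presents TGF beta and inhibins (chromosome 5, 107106570 to 107289629), led the receptors in level, with a mean of 99.2 TPM. It stood at 374 and 298 CPM in Numb exon 6 libraries and 275 and 267 CPM in the controls, without overlap. Its log2 fold change was 0.31 ± 0.14 (SE, with n = 2 in each group), and 0.30 ± 0.10 with the mouse as a block (edgeR adjusted p = 0.796). When mouse 1's Numb exon 6 library was left out, the value was 0.14. Tgfbr3 shares exon bases with Gm43422 on the same strand. Tgfbr1, the type I kinase for TGF beta, stood at 122 and 112 CPM under the Numb exon 6 morpholino and 97.7 and 102 CPM with the control. Both Numb exon 6 libraries were the higher, and the log2 fold change was 0.23 ± 0.11 (SE). Bmpr2, the type II kinase for BMPs, had 265 and 274 CPM against 240 and 260 CPM and a log2 fold change of 0.11 ± 0.11 (SE), its groups also apart.

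The remaining receptors differed less or not in the same way in both mice. Tgfbr2, the type II kinase for TGF beta, and Acvr2a, which binds activin and myostatin, had log2 fold changes of 0.04 ± 0.14 each (SE). Bmpr1a, a type I kinase for BMPs, had 73.2 and 80.0 CPM in Numb exon 6 libraries and 72.7 and 74.6 CPM in the controls. Bmpr1b, a further BMP kinase, had 2.87 and 3.95 CPM against 3.41 and 3.05 CPM. Acvr1, another type I kinase, was the receptor lower in both mice in CPM, at 26.3 and 23.8 CPM against 27.3 and 26.4 CPM. Acvr1b, the type I kinase for activin and myostatin, had 7.01 and 5.57 CPM against 3.42 and 5.77 CPM, so that the control library of mouse 1 stood apart from the other three. Acvr2b had its lowest value in mouse 1 under the Numb exon 6 morpholino, 1.21 CPM, and its highest in mouse 2 under the same morpholino, 3.77 CPM, with 2.32 and 2.71 CPM in the controls. Summed in TPM, the 5 type I receptors came to 90.2 and 86.2 TPM with the Numb exon 6 morpholino against 76.1 and 80.8 TPM with the control, and the 4 type II receptors to 101 and 97.7 TPM against 91.3 and 90.5 TPM.

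In their TPM levels the receptor-activated SMADs ranked Smad3 first, at a mean of 62.9 TPM, then Smad1 at 40.4 TPM, Smad5 at 38 TPM and Smad2 at 7.97 TPM. Smad5, which carries BMP signals (chromosome 13, 56703010 to 56742377), stood at 55.7 and 48.7 CPM in Numb exon 6 libraries against 73.1 and 55.0 CPM in the controls. It was lower in both mice, but the control of mouse 2 lay between the Numb exon 6 values. Its log2 fold change was -0.29 ± 0.18 (SE, with n = 2 in each group), and -0.28 ± 0.11 with the mouse as a block (edgeR adjusted p = 0.796). Without the control library of mouse 1 it was -0.08. On log2(TPM + 1) it was -0.11, with TPM values of 36.2 and 36.8 against 38 and 40.9. Smad5 shares exon bases with Gm27301 on the same strand. Smad1, its paralogue, had 44.8 and 60.3 CPM under the Numb exon 6 morpholino and 51.9 and 61.3 CPM with the control. Smad3 stood at 160 and 127 CPM against 184 and 133 CPM, and both genes followed the mouse more than the morpholino.

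Smad2, the partner of Smad3 downstream of TGF beta (chromosome 18, 76241580 to 76310963), had the lowest fold change of the 37 genes with a mean of at least 1 TPM. Its CPM values were 13.0 and 15.1 in the Numb exon 6 libraries and 14.3 and 26.4 in the controls, so the control library of mouse 2 stood apart. The log2 fold change was -0.53 ± 0.32 (SE, with n = 2 in each group), and -0.04 without that library. In TPM the gene was even, at 6.70 and 8.63 TPM against 7.70 and 8.85 TPM. Smad4, the shared partner, had 43.9 and 55.5 CPM against 60.8 and 50.1 CPM, with ratios of opposite sign. The inhibitory Smad7 stood at 12.7 and 17.9 CPM under the Numb exon 6 morpholino and 11.2 and 16.6 CPM with the control, and the rare Smad6 at 0.597 and 0.850 TPM against 0.412 and 0.576 TPM. Of the 7 SMADs 4 were lower and 2 higher in both mice, in CPM and in TPM alike. Over all genes tested 27.3% were lower and 28.1% higher in both mice in CPM, and the shares in TPM were not computed. Both inhibitory SMADs were higher in both mice, with log2 fold changes of 0.14 ± 0.28 and 0.54 ± 0.39 (SE).

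Skil (SnoN), a nuclear corepressor that binds SMADs and is itself a TGF beta target, had the highest fold change of the 37 genes (chromosome 3, 31095058 to 31122577). It stood at 254 and 324 CPM in Numb exon 6 libraries and 206 and 176 CPM in the controls. The groups did not overlap, and mouse 2 showed the larger difference. The log2 fold change was 0.60 ± 0.16 (SE, with n = 2 in each group), and 0.59 ± 0.15 with the mouse as a block (edgeR adjusted p = 0.796). DESeq2 with the block gave an adjusted p of 0.0248, and 0.323 without it; over the alternatives run the adjusted p ranged from 0.0248 to 1. In TPM Skil stood at 81.9 and 109 TPM against 62.0 and 79.2 TPM, which is 0.43 on log2(TPM + 1), again without overlap. Its relative Ski, at 103 and 129 CPM under the Numb exon 6 morpholino and 105 and 131 CPM with the control, had a log2 ratio of -0.02 in each mouse and a fold change of 0.03 on log2(TPM + 1).

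Inhibitors outside the cell gave small differences. Counts by direction, taken over all tested inhibitors with the nuclear Ski and Skil included, depended on the unit. In CPM 7 of the 9 tested inhibitors were lower in both mice (27.3% of all genes tested) and 1, Skil, higher (28.1%). In TPM 2, Fstl3 and Nog, were lower in both mice, 2, Ski and Skil, higher, and 5 mixed, with no share over all genes computed. Fstl1, a secreted follistatin-like glycoprotein, had 391 and 427 CPM in Numb exon 6 libraries and 397 and 439 CPM in the controls (log2 fold change -0.03 ± 0.11, SE). Ltbp4 and Ltbp1, which tether latent TGF beta to the matrix, had log2 fold changes of -0.07 ± 0.10 and -0.10 ± 0.11 (SE), with 636 and 599 CPM against 647 and 648 CPM for Ltbp4 and 371 and 334 CPM against 387 and 368 CPM for Ltbp1. Each of the 3 was slightly lower in both mice on counts, by less than its SE; on log2(TPM + 1) Fstl1 had the opposite sign, at 0.03. Fst, which binds and blocks activin and myostatin, was even in TPM, at 6.35 and 6.80 TPM with the Numb exon 6 morpholino and 6.53 and 6.36 TPM with the control. Ltbp3, another latent TGF beta binding protein, had 61.6 and 64.9 CPM against 73.1 and 62.2 CPM. Fstl3, of similar action to Fst, was more abundant, at 40.6 and 34.5 TPM against 41.9 and 37.7 TPM. The BMP antagonists Nog and Grem1 were close to absent. Nog had estimated counts of 12 and 41 against 40 and 84, and its log2 fold change of -0.88 ± 1.02 (SE) was smaller than its error. Grem1 had 4 and 6 against 16 and 8 and was not tested.

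The Id genes, the classic targets of BMP signalling, did not share a direction. Id1 (chromosome 2, 152736251 to 152737410) stood at 33.7 and 31.1 CPM in Numb exon 6 libraries and 45.1 and 42.7 CPM in the controls. The groups were apart, and the difference was alike in the mice, with log2 ratios of -0.42 and -0.45. The log2 fold change was -0.44 ± 0.13 (SE, with n = 2 in each group), and -0.44 ± 0.10 with the mouse as a block (edgeR adjusted p = 0.796). In TPM, too, Id1 stood apart, at 66.8 and 62.6 TPM against 85.8 and 83.5 TPM. Of the 5 genes below both controls in CPM, Id1 was the only one also below them in TPM.

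Id3 had the opposite sign (chromosome 4, 136143497 to 136145755), at 421 and 510 CPM under the Numb exon 6 morpholino and 341 and 465 CPM with the control. It was higher within each mouse, though the control of mouse 2 lay between the Numb exon 6 values. Without the control library of mouse 1 the log2 fold change was 0.00. The log2 fold change was 0.21 ± 0.19 (SE, with n = 2 in each group), and 0.22 ± 0.08 with the mouse as a block (edgeR adjusted p = 0.796). Id2 had 97.4 and 126 CPM against 103 and 132 CPM, differing by -0.07 ± 0.19 (log2, SE) on counts and by 0.18 on log2(TPM + 1). Id4, the rarest of the 4, had 3.60 and 5.81 CPM in Numb exon 6 libraries and 3.41 and 4.18 CPM in the controls. Summed over the 4 genes, Id transcripts came to 878 and 1057 TPM with the Numb exon 6 morpholino against 709 and 994 TPM with the control, most of them Id3.

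**Figure D3:**
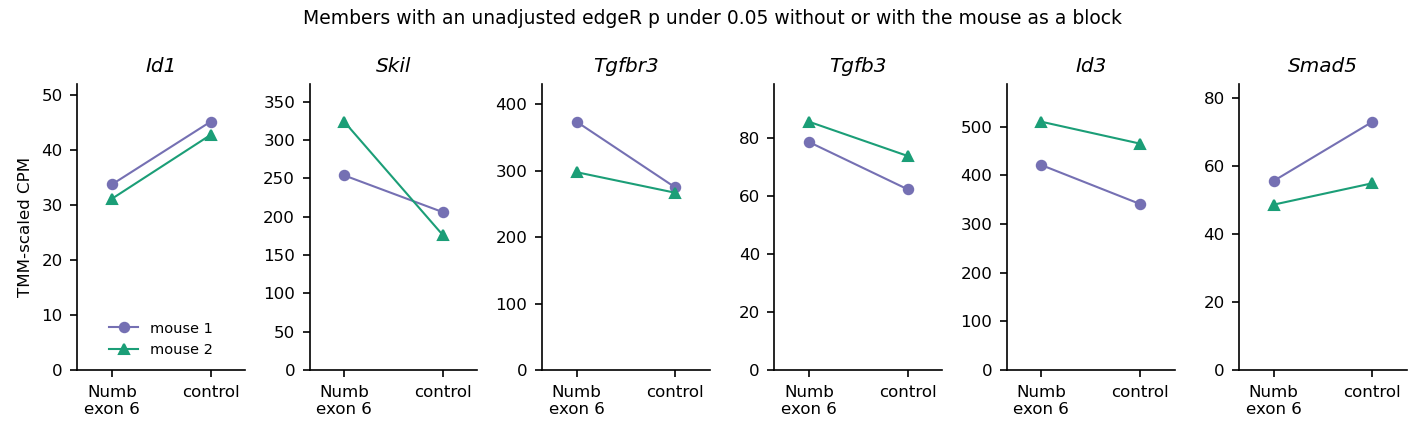
TMM-scaled CPM in the Numb exon 6 and control libraries of each mouse (lines join the libraries of 1 animal) for the 6 genes with an unadjusted edgeR p under 0.05 without or with the mouse as a block. Id1 and Smad5 were lower with the Numb exon 6 morpholino in both mice, and Skil, Tgfbr3, Tgfb3 and Id3 higher; none passed after adjustment over all genes.

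The promoter sequences of the family could be read for 32 of the 43 genes from RefSeq (GRCm38.p6), as the 250 bases before each transcript start. Shown are 3 whose windows lie before the annotated start of the gene and that differ in their data. Tgfbr1 is a receptor with both Numb exon 6 libraries above both controls. Id4 is a BMP target higher in mouse 2, and Mstn was close to absent in all libraries. The windows were not checked for exons of other genes, and Id4 shares exon bases with the opposite-strand models A330033J07Rik and Gm49291. Capitals mark matches, on either strand, to GGCGCC (a GC-rich element bound by BMP SMADs, its own reverse complement), CAGAC (the SMAD box) and TGGGAA (the core bound by the Notch factor RBPJ). The Tgfbr1 window lies at chr4:47352972-47353221, that of Id4 at chr13:48260866-48261115 and that of Mstn at chr1:53061390-53061639, all on the plus strand and written 5′ to 3′.
Tgfbr1: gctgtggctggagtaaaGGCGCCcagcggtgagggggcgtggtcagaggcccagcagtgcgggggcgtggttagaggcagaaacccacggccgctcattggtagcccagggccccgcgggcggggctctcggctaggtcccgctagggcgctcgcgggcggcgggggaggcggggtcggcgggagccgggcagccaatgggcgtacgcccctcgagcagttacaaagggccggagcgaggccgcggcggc
Id4: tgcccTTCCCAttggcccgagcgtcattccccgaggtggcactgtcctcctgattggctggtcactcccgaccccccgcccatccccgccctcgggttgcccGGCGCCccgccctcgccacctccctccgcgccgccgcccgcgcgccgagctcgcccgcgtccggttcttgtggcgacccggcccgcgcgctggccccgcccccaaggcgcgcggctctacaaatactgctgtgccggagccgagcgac
Mstn: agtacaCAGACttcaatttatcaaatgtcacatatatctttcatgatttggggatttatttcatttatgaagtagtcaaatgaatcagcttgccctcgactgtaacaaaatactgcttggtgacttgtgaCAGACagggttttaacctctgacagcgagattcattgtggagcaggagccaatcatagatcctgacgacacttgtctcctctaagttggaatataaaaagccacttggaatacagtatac
The 32 genes had 40 windows, and a gene was counted if any of its windows held the motif. The shares over all sequences are per window, so the units differ and the figures cannot be compared directly. GGCGCC occurred in 9 of the 32 genes (9.59% of all 32851 windows), CAGAC in 15 (42.2%) and TGGGAA in 8 (21.6%). The median GC content was 66.6% in the windows of the family and 52.4% over all windows. A match describes the letters and not a site in use: Tgfbr1 and Id4 held 1 GGCGCC each, Id4 also 1 TGGGAA in reverse, and Mstn 2 CAGAC.

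Of a wider list of 103 pathway genes outside the 43, 0 were called by edgeR, blocked or not. In DESeq2 the unblocked fit called 0 (0.241% of all genes) and the fit with the block 1, Snai2 (0.699% of all genes). Of the 94 that were tested, 35 had higher values in both animals (28.1% of all genes tested) and 21 lower ones (27.3%). Their median log2 fold change was 0.07, against 0.00 over all genes tested. At an unadjusted p under 0.05 stood 3, and 11 with the mouse as a block, against 4.16% and 6.09% of all genes. The 11 were 9 with higher and 2 with lower values. The 24 target genes held 6 of the 9, namely Snai2, Ccn1, Ccn2, Postn, Klf10 and Hey1; Hey1 is also a Notch target. Snai2, a Snail family transcription factor and TGF beta target, stood at 49.1 and 55.0 CPM in Numb exon 6 libraries and 30.4 and 39.4 CPM in the controls (log2 fold change 0.58 ± 0.18, SE). For Snai2 edgeR gave an adjusted p of 0.999, or 0.796 when blocked, and DESeq2 one of 0.4, or 0.0192 when blocked. The matricellular gene Ccn1 had 308 and 393 CPM against 263 and 300 CPM (0.32 ± 0.16, SE), and the matrix genes Postn and Dcn log2 fold changes of 0.30 ± 0.13 and 0.29 ± 0.14 (SE). Dcn is also a marker of fibro-adipogenic progenitors, whose summed levels are given above. Of that list's 10 markers 6 were higher and 1 lower in both mice, against 28.1% and 27.3% of all genes tested. Their part in the difference was not tested. Lower in both mice were Pcsk5, a protease that cleaves precursors of the family, at 88 and 81.6 CPM against 109 and 102 CPM (-0.31 ± 0.12, SE), the kinase Map3k7 (-0.30 ± 0.15, SE) and Snai1 (-0.66 ± 0.31, SE). Chrdl1, a BMP antagonist, had 0.69 ± 0.33 (SE) at a mean of 1.57 TPM.

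The deposited counts grow with the length of the transcripts assigned to a gene, so count and TPM can differ in direction for a gene. For 7 of the 37 genes with a mean of at least 1 TPM the count per TPM, a measure of mean transcript length, shifted between the libraries of at least 1 mouse by over 0.25 on the log2 scale, which 8.73% of the 15605 genes did. These genes were chosen after their values were seen. Smad2, with 7 annotated transcripts of 614 to 8089 bases, had the widest shift, -0.74 in mouse 2 and 0.13 in mouse 1. Its relative length, set against the median gene of each library, was 1.77 and 1.61 in the Numb exon 6 libraries and 1.62 and 2.69 in the controls. The control library of mouse 2 thus stood out in length as it did in CPM, and not in TPM. Skil shifted by 0.45 in mouse 2 and by -0.03 in mouse 1, so that part of its count difference in mouse 2 does not appear in TPM. Id2 and Tgfb1 shifted by -0.41 and -0.40 in mouse 1, and Inhba by 0.37 in mouse 2. Acvr2b shifted by -0.27 and Smad5 by -0.25 in mouse 1. For Id1, Id3, Tgfb3 and Tgfbr3 the shifts were at most 0.02 in size.

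**Figure D4:**
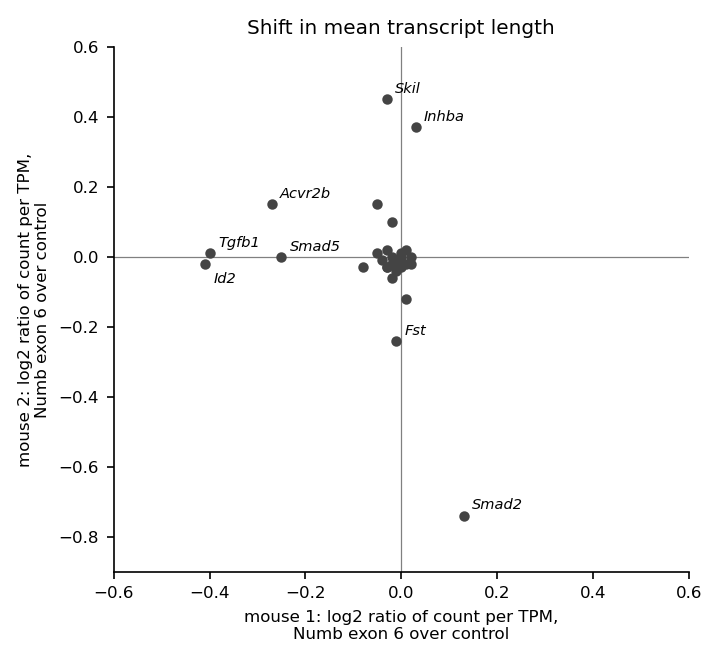
Log2 ratio of count per TPM, Numb exon 6 over control, in mouse 1 (horizontal) and mouse 2 (vertical) for the 37 genes with a mean of at least 1 TPM; 0 means the same mean transcript length in both libraries. Most genes lie at the centre, and Smad2 at -0.74, Skil at 0.45 and Inhba at 0.37 depart in mouse 2, Id2 and Tgfb1 in mouse 1.

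The mice were also compared in this family, 1 animal with 1 and therefore without a test. Differences between the mice were common over all genes too. The counts lower in mouse 2 were near their shares over all genes, and those higher were above theirs. Of the 37 genes, 12 lay higher in both libraries of mouse 2 than in both of mouse 1 (21.3% of the 15605) and 7 lower (22.4%), and of all 42 tested genes 14 (20.9%) and 8 (18.8%). Among the 4 Id genes 3 were higher in mouse 2. Id3 had 510 and 465 CPM in the Numb exon 6 and control libraries of mouse 2 and 421 and 341 CPM in those of mouse 1, Id2 126 and 132 CPM against 97.4 and 103 CPM, and Id4 5.81 and 4.18 CPM against 3.60 and 3.41 CPM. The feedback inhibitor Smad7 had 17.9 and 16.6 CPM in mouse 2 against 12.7 and 11.2 CPM in mouse 1, and Tgfb1 4.16 and 4.08 CPM against 2.07 and 2.83 CPM. Smad1 and Ski were higher in mouse 2 by 0.33 and 0.32 on the log2 scale. Smad3 and Smad5 were lower in mouse 2, by log2 differences of -0.40 and -0.30, and Fstl3 by one of -0.25. Id1 overlapped between the mice. All 6 erythroid markers were higher in mouse 2 and summed to 1733 and 1532 TPM in mouse 2 against 928 and 538 TPM in mouse 1, and their part in these differences was not tested.

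**Figure D5:**
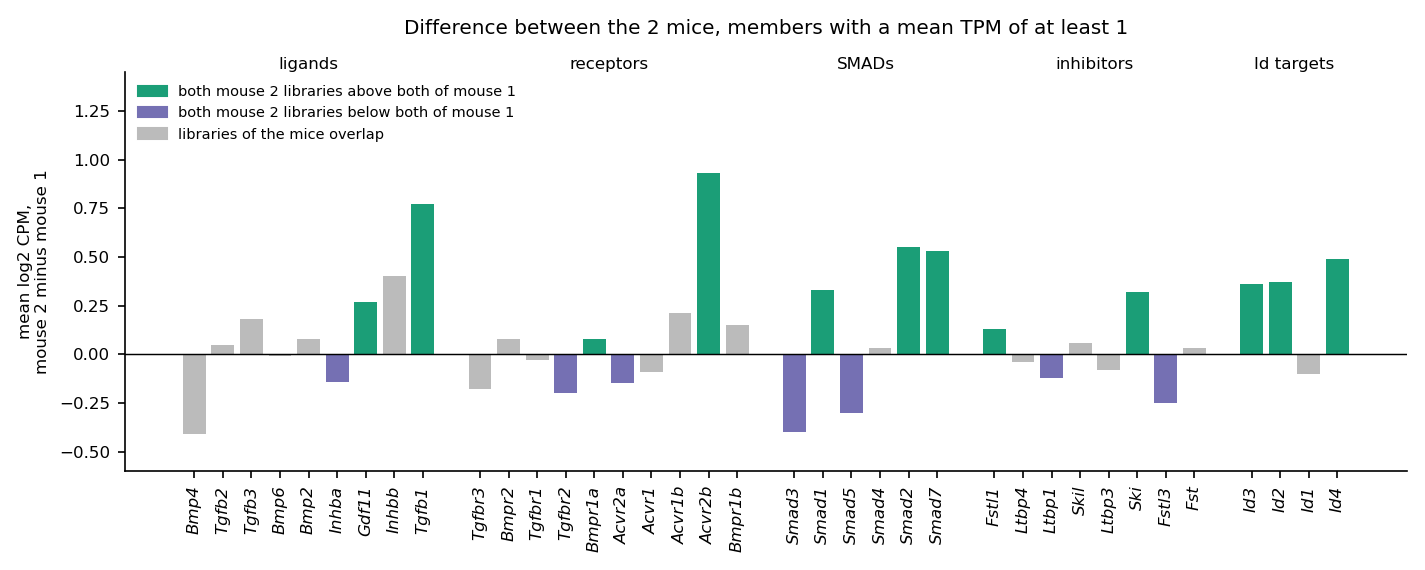
Mean log2 CPM of mouse 2 minus that of mouse 1, over the Numb exon 6 and control libraries of each, for the 37 genes with a mean of at least 1 TPM; green and purple bars mark genes whose libraries do not overlap between the mice, grey bars those that do. Green bars include Id2, Id3, Id4 and Smad7, and purple bars Smad3, Smad5 and Fstl3; each bar compares 1 animal with 1.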

How the data were processed

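RNA of 4 satellite cell libraries (5 ng each, SMART-Seq2 cDNA, per the labels' protocols) was sequenced. The submitters' processing notes name GRCm38, HISAT2 2.1.0 and StringTie 1.3.6. Read length, annotation release and the conversion of coverage into counts: not given in the sources used here. Deposited by the authors were estimated counts (whole numbers whose low values pile up at multiples of 4, so taken here as derived from coverage) and TPM, scaled to transcript length and library. Estimated counts were rounded and tested with edgeR 4.0.16 (R 4.3.3; quasi-likelihood, robust, TMM, default filter by group, no block, Benjamini-Hochberg over 27551 genes, threshold 0.05). Fold changes are Numb exon 6 minus control, with the SE from the test statistic. Levels between genes are compared in TPM and differences in TMM-scaled CPM. Ratios within a mouse use a prior count of 2.

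Libraries with the same number share an animal, per the labels, and are paired by it. After removal of group means their deviations correlated at 0.401 over 8469 genes at or above 3 in mean log2 CPM and at 0.0561 over all tested genes. The edgeR fit with the mouse as a block is therefore given beside the results it moves. Without the block, p-values measure the spread between 2 libraries per group. With it, they measure the spread left once the difference between the mice is removed. In either case the spread of a gene is moderated by that of the other genes. Numb was named as the targeted gene, and members if called, if their unadjusted p was under 0.05 in either edgeR fit, if their fold change was 0.5 or more (log2) with 1 sign in both mice at a mean TPM of at least 1, or if they were among the 3 most abundant of their role (17 genes), and of the wider pathway list the 8 with the smallest p were named at that level. The rule also names the 2 most abundant markers of each list; beyond satellite cells these are given as sums. Other markers, such as Myf5 and Lyz2, were named after their values were seen. The other members were named to account for all 43. The list's older symbols Hfe2, Ctgf and Cyr61 were matched as Hjv, Ccn2 and Ccn1. The members and lists were chosen with earlier results of these data known. Alternatives were the block, DESeq2 1.42.0, limma 3.58.1 (voom, log2(TPM + 1), log2(TPM + 0.1)), other scalings and filters, and removal of each library. The tests were checked on simulated counts. Gene models came from GENCODE vM21 (GRCm38), where 55094 of the 55487 identifiers were found; 13 of the 43 genes share exon bases with another gene, and reads carry no strand.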

Additional observations from a re-analysis of the deposited data

Results flagged for a closer look

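Among the 37 genes with a mean of at least 1 TPM, 3 had log2 ratios of Numb exon 6 over control of opposite sign in the mice, each at least 0.25 in size. Bmp4 had 0.25 in mouse 1 and -1.45 in mouse 2, Inhbb had 1.05 in mouse 1 and -0.38 in mouse 2, and Acvr2b had -0.94 in mouse 1 and 0.48 in mouse 2. Each ratio rests on 1 library per morpholino, so the difference between the mice was not tested.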

How the results depend on the processing

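With 2 libraries per group, adjusted calls are few under any tool. Of the 42 genes, 0 were called under all alternatives except 1 (Skil) in DESeq2 with the block. Over all genes DESeq2 called 65 without and 159 with the block, edgeR 10 without a filter on low counts and 1 where 2 libraries had to reach 5 CPM, and 0 to 1 without each library in turn. At an unadjusted p under 0.05 stood 6 of the 42 in edgeR and in DESeq2 with the mouse as a block (replicate block), 1 with limma on log2(TPM + 1) and on log2(TPM + 0.1), and 2 to 4 without each library. Removal of a library leaves an arm of 1, which is assumed to vary like the other group. In edgeR the block changed no call; in DESeq2 it added Skil among the 42 and Snai2 in the wider pathway list. The median of the 42 ran from -0.06 to 0.04 without each library. In deposited TPM, an alternative chosen after seeing the data, 9 of the 37 genes were lower in both mice and 2 lay below both controls. Of the 15605 genes, 13.2% lay below both controls in TPM, and the share lower in both mice was not computed.

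Of 579 fold changes of single genes under 14 alternatives, 44 changed sign, in 21 genes, while 21 genes kept theirs throughout, Skil, Id1, Tgfb3, Tgfbr3, Tgfbr1 and Smad5 among them. On log2(TPM + 1) and log2(TPM + 0.1) the values that changed sign were 0.02 and 0.03 for Tgfb1 and for Fst, -0.07 and -0.08 for Inhba, 0.03 and 0.03 for Fstl1 and for Ski, and 0.18 and 0.18 for Id2. Without each library in turn the log2 fold changes ran from -0.74 to 0.27 for Tgfb1, -1.25 to 0.02 for Bmp4, -0.20 to 0.78 for Bmp5, -3.65 to 1.47 for Mstn, -0.36 to 0.01 for Gdf11, -0.08 to 0.21 for Inhba and -0.22 to 0.89 for Inhbb. Among receptors they ran from -0.07 to 0.15 for Tgfbr2, -0.01 to 0.12 for Bmpr1a, -0.17 to 0.29 for Bmpr1b, -0.05 to 0.12 for Acvr2a and -1.06 to 0.58 for Acvr2b. For the others they ran from -0.34 to 0.09 for Smad1, -0.37 to 0.12 for Smad3, -0.13 to 0.44 for Smad7, -0.10 to 0.03 for Fstl1, -0.22 to 0.02 for Ltbp3, -0.19 to 0.13 for Ski, -0.28 to 0.11 for Id2 and -0.08 to 0.61 for Id4. The cause of these changes was not tested. Id1 ran from -0.50 to -0.38, Skil from 0.41 to 0.76, Tgfb3 from 0.15 to 0.39 and Smad5 from -0.50 to -0.08.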

Other observations

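Ratios between related genes within a library, chosen after their values were seen, do not depend on the scaling of the library. Id3 exceeded Id1 by 9.92 and 12.9 times in TPM in the Numb exon 6 libraries and by 5.95 and 8.63 times in the controls, without overlap. Skil exceeded Ski by 2.24 and 2.37 times with the Numb exon 6 morpholino against 1.76 and 1.74 times with the control, also without overlap. Tgfbr3 exceeded Tgfbr2 by 3.13 and 2.99 times against 2.44 and 2.72 times. The ratio of the antagonists Fstl3 and Fst overlapped between the groups, at 6.39 and 5.07 against 6.41 and 5.93. No test was made of these ratios.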
